A study of Mus musculus with 8 samples.

Results

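The data described here are the mRNA levels of 10 BCL2 family genes in fetal liver long-term hematopoietic stem cells (LT-HSCs) that had both, 1 or no working copies of *IκBα* (*Nfkbia*). The 10 genes were chosen by symbol and found in the count table through their Ensembl identifiers, and they are 10 of the 55487 genes listed there. They comprise 3 anti-apoptotic genes (*Bcl2*, *Bcl2l1*, *Mcl1*), 2 effectors (*Bax*, *Bak1*) and 5 BH3-only genes (*Bcl2l11*, *Bid*, *Bbc3*, *Pmaip1*, *Bmf*), so that 7 of the 10 promote cell death although the group is known for cell survival. All 10 passed the filter of at least 10 reads summed over the 8 libraries.

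BCL2 family proteins meet at the mitochondrial outer membrane, where they set whether a cell starts intrinsic apoptosis. The anti-apoptotic proteins hold the effectors BAX and BAK in check, the effectors form pores that let cytochrome c out, and the BH3-only proteins answer stress by binding the anti-apoptotic proteins or by activating the effectors directly. Hematopoietic stem cells are known to need MCL1 to survive, BCL-XL (the product of *Bcl2l1*) is known to protect maturing erythroid cells, and *Bcl2l1* is a known target of NF-κB, the transcription factor that IκBα retains in the cytoplasm.

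The libraries were made from 500 sorted LT-HSCs (LSK CD48- CD150+) each, from E14.5 fetal livers of the targeted *Nfkbia* tm1Bal knockout line, whose parents were heterozygous and could also carry the *Gfi1:tomato* reporter. There were 3 WT, 3 *IκBα* HET and 2 *IκBα* KO libraries (1 further KO library had been discarded by the authors for its quality). WT1, WT2 and HET1 were male and labelled total RNA, whereas WT3, HET2, HET3, KO1 and KO2 were female and labelled polyA RNA, so sex and RNA label cannot be told apart and no male KO exists. Embryos lacked or carried *IκBα* in every tissue, so the stem cells' surroundings had the same genotype as the cells.

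The libraries held 17895973 to 21720972 counted reads, and 3 reads, taken as the limit of detection, corresponded to 0.125 to 0.178 CPM (counts per 1000000 reads, with TMM-scaled library sizes). The targeted gene fitted its labels, with 1 and 0 *Nfkbia* reads in KO1 and KO2 against 243 to 1621 reads in the other libraries. The cell label was less even. The summed level of 10 HSC markers was 1946, 1989 and 282 CPM in WT1 to WT3, 660, 570 and 204 CPM in HET1 to HET3 and 1837 and 1209 CPM in the KO libraries. Among defining markers, *Procr* stood at 8.49 CPM in WT3 and 1.13 CPM in HET3 against 30.6 to 169 CPM elsewhere, and *Ly6a* had no read in HET3. *Kit*, which is part of the sorting gate, did not follow, with 148 CPM in WT3 and 170.0 CPM in HET3 against 135 to 231 CPM elsewhere. WT3 and HET3 also held the most hepatocyte marker RNA, 1277 and 628 CPM against 7.54 to 232 CPM in the other libraries. Both are female, and together they make up most of the female WT/HET libraries, so the fold changes and counts of calls for *IκBα* KO are also given without them. In bulk RNA, fewer cells of a type and less RNA per cell cannot be told apart.

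**Figure D1:**
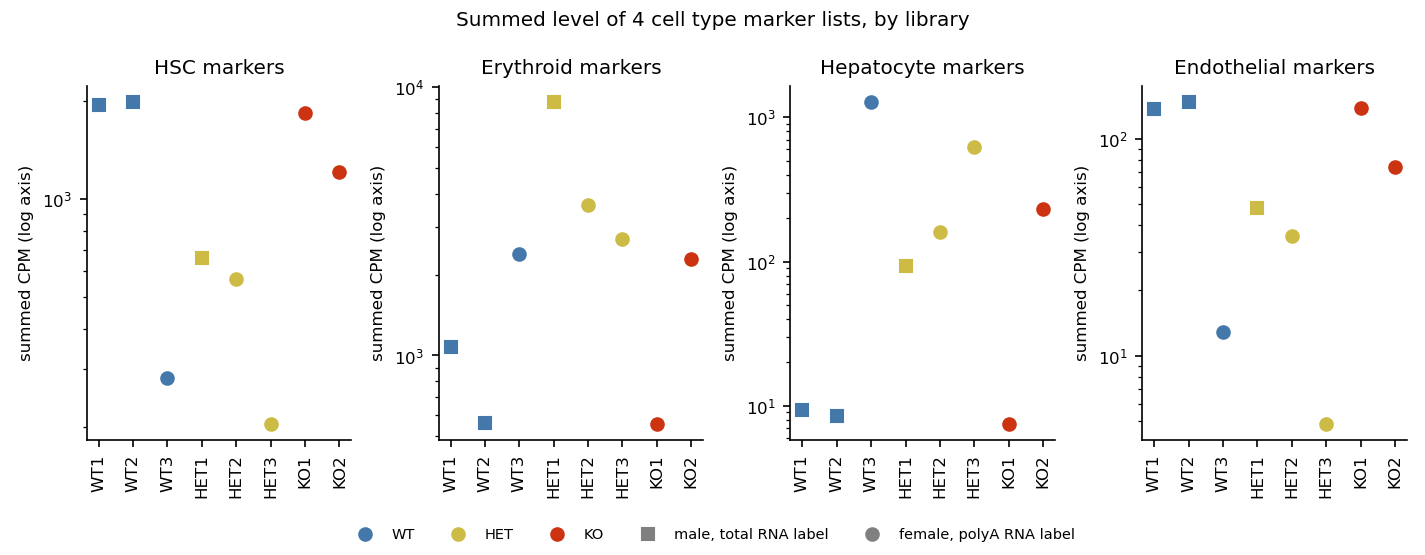
Summed level in CPM (log axes) of the HSC, erythroid, hepatocyte and endothelial marker lists in each of the 8 libraries, with color for genotype and shape for sex and RNA label. WT3 (282 CPM) and HET3 (204 CPM) have the lowest HSC sums, and the endothelial sums are lowest in the same libraries (12.9 and 4.86 CPM).

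All members share one sequence feature, the BH3 core, that is, codons for leucine, any 3 residues, glycine or alanine, and aspartate. The core was found in the longest complete coding transcript of 10 of 10 members, but also in 5148 of 21501 mouse genes (23.9%), so the letters alone do not define the family. In *Bbc3* and *Bmf* the fifth residue of the core is alanine, and in the other 8 genes it is glycine. The core lay within 1 exon in every member. The 18 core bases (capitals) with 15 coding bases on either side are shown, as annotated in GENCODE M21 on GRCm38, for the 3 anti-apoptotic genes and for the 4 pro-apoptotic genes with the lowest p values in KO. The coordinates are those of the capitals.
Bcl2 (chr1:106712584-106712601, minus strand): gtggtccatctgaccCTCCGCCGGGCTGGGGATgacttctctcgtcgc
Bcl2l1 (chr2:152829706-152829723, minus strand): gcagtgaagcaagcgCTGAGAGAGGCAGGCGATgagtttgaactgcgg
Mcl1 (chr3:95659436-95659453, plus strand): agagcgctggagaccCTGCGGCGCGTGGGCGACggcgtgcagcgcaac
Bax (chr7:45466006-45466023, minus strand): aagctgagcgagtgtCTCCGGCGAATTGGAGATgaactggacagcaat
Bcl2l11 (chr2:128147150-128147167, plus strand): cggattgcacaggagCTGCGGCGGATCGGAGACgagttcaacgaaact
Bid (chr6:120897298-120897315, minus strand): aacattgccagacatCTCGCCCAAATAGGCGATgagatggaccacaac
Bbc3 (chr7:16313773-16313790, plus strand): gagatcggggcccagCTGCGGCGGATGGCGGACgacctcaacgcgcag

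To set the genes' levels against each other, CPM (scaled with TMM factors) was divided by the length of each gene's merged exons in kilobases. *Bax* was the most abundant member, with 87.7 ± 21.9 CPM per kilobase (SD, n = 8), followed by *Mcl1* with 53.4 ± 4.86 and *Bid* with 34.8 ± 11.6. *Bax* exceeded *Mcl1* in 8 of 8 libraries and their ranges did not overlap, whereas the ranges of *Mcl1* and *Bid* overlapped. A clear gap followed, since *Bid* and *Bcl2l1* (6.75 ± 1.83 CPM per kilobase) did not overlap either. *Bbc3* (5.48 ± 2.99), *Bak1* (2.30 ± 0.689), *Bcl2* (1.14 ± 0.467), *Bcl2l11* (1.14 ± 0.367) and *Pmaip1* (0.870 ± 0.712) came next, each overlapping its neighbor, and *Bmf* was last with 0.0376 ± 0.0524 CPM per kilobase. With the length of the longest transcript in place of merged exons, *Bcl2l11* and *Bcl2* changed places and no other pair did. The dominant anti-apoptotic transcript was thus that of *Mcl1*, which made up 81.2 to 92.7% of the summed anti-apoptotic level per kilobase in each library, while *Bcl2* made up 0.725 to 2.92%. On the other side, *Bax* and *Bid* together made up 87.6 to 96.2% of the summed pro-apoptotic level.

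Among the anti-apoptotic genes, *Bcl2* and *Bcl2l1* were higher in *IκBα* KO than in the female WT/HET libraries, and *Mcl1* was not. *Bcl2*, the founding member of the family, stood at 13.0, 11.6 and 4.74 CPM in WT1 to WT3, at 13.3, 8.98 and 4.09 CPM in HET1 to HET3 and at 16.4 and 11.6 CPM in KO1 and KO2. KO1 was the highest library, but KO2 lay just below the male libraries, and the low values were those of WT3 and HET3. The log2 fold change of KO over WT/HET, with sex in the model, was 1.24 ± 0.387 (SE), with an adjusted p of 0.152 (edgeR quasi-likelihood test, Benjamini-Hochberg over 20610 genes), and the KO mean was 2.36-fold that of the female WT/HET libraries. Both KO libraries were female, so this model sets KO against WT3, HET2 and HET3, here and in the fold changes below. The male libraries enter its estimate of spread, and the value of *Bcl2* was also 1.24 without WT1 or without WT2.

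*Bcl2l1*, which encodes BCL-XL, stood at 38.4, 31.5 and 22.4 CPM in WT, at 29.4, 28.1 and 18.6 CPM in HET and at 44.7 and 34.7 CPM in KO. Both KO libraries lay above 5 of the 6 WT/HET libraries, the exception being WT1, which exceeded KO2. The log2 fold change was 0.78 ± 0.241 (adjusted p = 0.152, edgeR). *Mcl1*, whose protein is short-lived and needed by stem cells, was the steadiest member, with 156, 182 and 168 CPM in WT, 188, 203 and 195 CPM in HET and 171 and 198 CPM in KO. The KO libraries fell inside the WT/HET range, and the log2 fold change was -0.03 with a 95% interval from -0.40 to 0.34 (0.24 when scaled by library size only). The median of all genes was 0.13 in the main fit and 0.41 with library size only.

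The effector *Bax* was lower in KO than in the female WT/HET libraries but not lower than in the male ones. *Bax* stood at 109, 96.1 and 168 CPM in WT, at 135, 171 and 187 CPM in HET and at 101.6 and 137 CPM in KO. WT1, WT2, HET1 and the KO libraries formed the low end, and WT3, HET2 and HET3 the high end. The log2 fold change was -0.56 ± 0.200 (adjusted p = 0.161, edgeR). *Bak1*, the other pore former, was far less abundant, with 3.84, 2.93 and 6.72 CPM in WT, 7.02, 6.31 and 7.65 CPM in HET and 4.75 and 5.02 CPM in KO. KO lay below the female WT/HET libraries and above WT1 and WT2, and the log2 fold change of -0.50 ± 0.451 did not differ from 0 beyond its error (adjusted p = 0.505, edgeR).

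Of the BH3-only genes, *Bcl2l11* and *Bid* were low and *Bbc3* was high in KO relative to the female WT/HET libraries. *Bcl2l11* encodes BIM, which binds all anti-apoptotic members and also activates BAX and BAK, and it stood at 7.67, 6.602 and 11.9 CPM in WT, at 9.09, 13.5 and 11.4 CPM in HET and at 4.84 and 7.82 CPM in KO. KO1 was the lowest of the 8 libraries, and KO2 lay between WT1 and HET1. The log2 fold change was -0.96 ± 0.340 (adjusted p = 0.159, edgeR), and the KO mean was 51.6% of the female WT/HET mean.

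*Bid*, which links death receptors to mitochondria once cut by caspase-8, stood at 81.8, 98.9 and 188 CPM in WT, at 141, 156 and 152 CPM in HET and at 71.8 and 99.2 CPM in KO. KO1 was again the lowest library, and KO2 exceeded WT1 and WT2 but not WT3 or any HET library. Its log2 fold change of -0.95 ± 0.261 had the lowest p of the members (unadjusted p = 0.0061, adjusted p = 0.148, edgeR). *Bbc3* encodes PUMA, a p53 target that also neutralizes every anti-apoptotic member, and it stood at 18.8, 15.6 and 4.74 CPM in WT, at 6.81, 10.2 and 3.02 CPM in HET and at 19.4 and 14.46 CPM in KO. The male WT libraries were as high as the KO libraries, and HET3 and WT3 were lowest. The log2 fold change was 1.496 ± 0.567 (adjusted p = 0.166, edgeR).

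The remaining BH3-only genes were scarce. *Pmaip1*, which encodes NOXA, a partner chiefly of MCL1, had 0, 33 and 76 reads in WT, 96, 92 and 14 reads in HET and 17 and 46 reads in KO. Libraries of the same genotype differed more than the genotypes did, and the log2 fold change was -1.02 ± 1.52. *Bmf*, known for its response to loss of cell attachment, had 12, 17 and 1 reads in WT, 2, 1 and 0 reads in HET and 1 and 1 reads in KO. Only the male WT libraries exceeded the limit of 3 reads, so the fitted fold change of KO depends on the prior count and is not read, and a difference of KO from the female WT/HET libraries was not detectable at this depth.

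**Figure D2:**
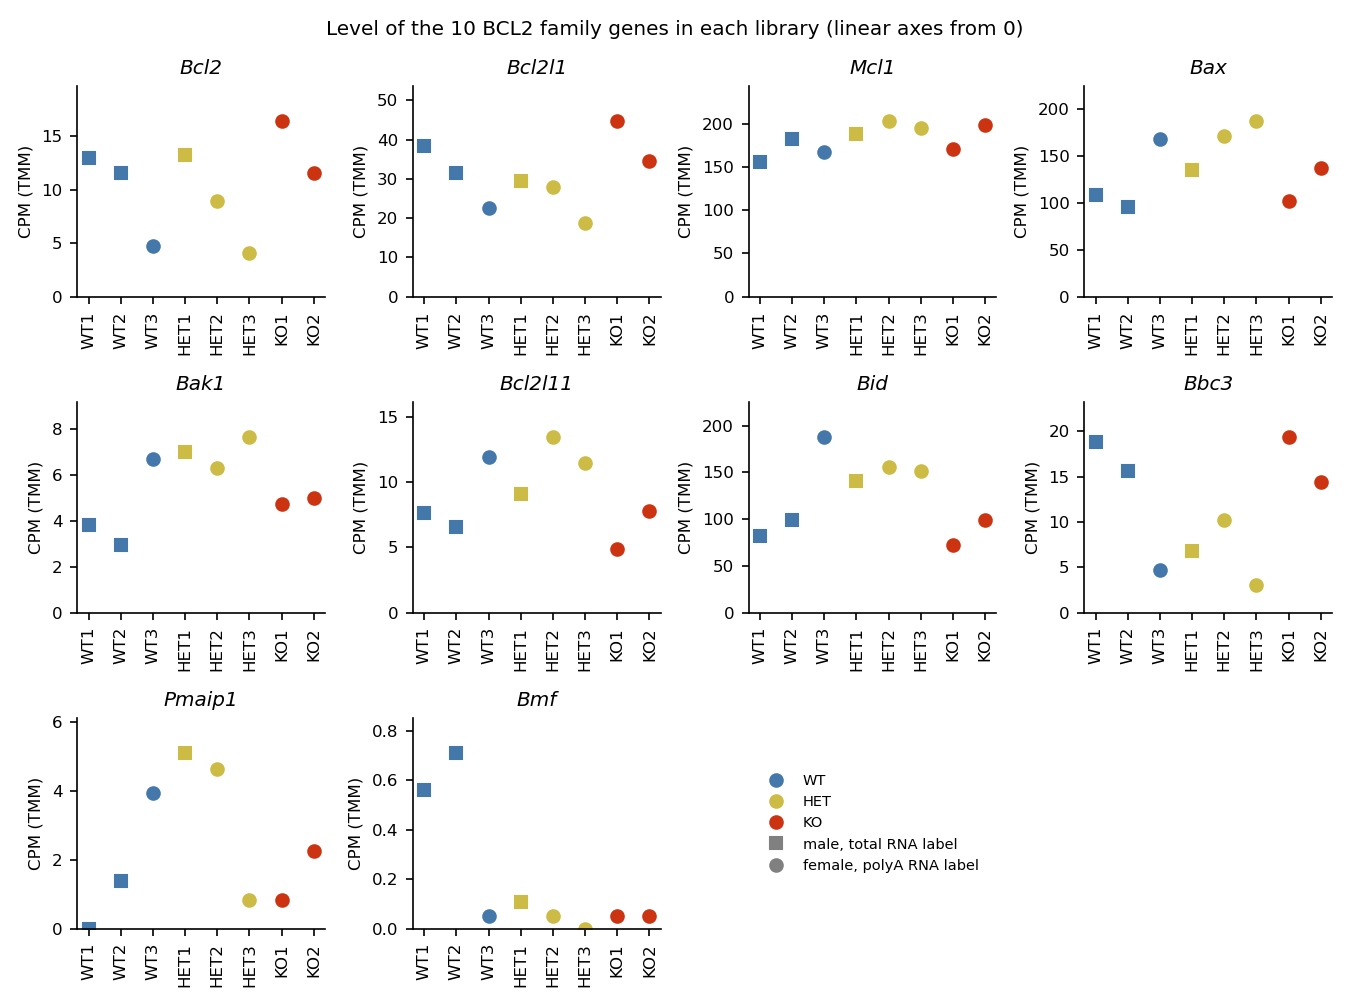
Level in CPM (linear axes from 0) of the 10 genes in each of the 8 libraries, with color for genotype and shape for sex and RNA label. For *Bcl2*, *Bcl2l1* and *Bbc3* the KO libraries lie above the 3 female WT/HET libraries, for *Bax*, *Bak1*, *Bcl2l11* and *Bid* below them, and the male WT libraries lie on the KO side in all 7.

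Over the 10 members, none was called in *IκBα* KO against WT/HET (adjusted p below 0.05 and absolute log2 fold change above 1, edgeR), and none of the 20610 genes tested was either (0%). At an unadjusted p below 0.05 edgeR picked 6 of 10 members, against 5196 genes in all (25.2%). Of these, *Bcl2*, *Bcl2l1* and *Bbc3* were higher (15.7% of all genes) and *Bax*, *Bcl2l11* and *Bid* lower (9.48%), so the lower members were all pro-apoptotic and the higher ones included both anti- and pro-apoptotic genes. The median log2 fold change of all genes was 0.13. DESeq2, the tool of the study, gave an adjusted p below 0.05 for 4 members (13.4% of all genes, with 8.46% higher and 4.92% lower), namely *Bcl2* (adjusted p = 0.0302) and *Bcl2l1* (0.0439), which were higher, and *Bcl2l11* (0.023) and *Bid* (0.0164), which were lower. None of the 4 passed an absolute log2 fold change of 1 after apeglm shrinkage, which ranged from -0.85 for *Bid* to 0.97 for *Bcl2*, whereas 1476 genes did (7.16%). Without shrinkage, *Bcl2* alone passed (1 member, against 9% of all genes). Exact permutation tests over samples, which cannot go below a two-sided p of 0.0714 with 2 against 6 libraries, gave 0.143 for *Bcl2l1*, 0.214 for *Bcl2l11* and *Bid* and 0.286 or more for the other 7.

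The KO contrast of the members rested on which libraries served as the reference. Against all 6 WT/HET libraries, the KO libraries overlapped in level for 10 of 10 members (4.83% of all genes did not overlap, with 3.05% above and 1.79% below). Against the 3 female WT/HET libraries, 7 of 10 did not overlap, 3 above and 4 below, when 48.5% of all genes did not overlap (27.1% above and 21.4% below). Against the 3 male WT/HET libraries, 1 of 10 did not overlap, *Bmf*, whose KO libraries and HET1 were all under the limit of 3 reads (12.2% of all genes). The 5 female libraries alone set KO against WT3, HET2 and HET3, as the main fit does through its sex term. In these 5 libraries, edgeR picked the members *Bcl2*, *Bcl2l1*, *Bax*, *Bcl2l11*, *Bid* and *Bbc3* at an unadjusted p below 0.05 (6 members, 27.3% of all genes) and called none (0%). DESeq2 gave those 6 an adjusted p below 0.05 (20.4% of all genes) and called *Bbc3*, with a shrunken log2 fold change of 1.01 (adjusted p = 0.0431, 7.51% of all genes). Without sex in the model, no member had an unadjusted p below 0.05 (2% of all genes, edgeR).

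With WT3 and HET3 left out, no member passed an unadjusted p of 0.05 (5.23% of all genes, edgeR) or a DESeq2 adjusted p of 0.05 (0.111% of all genes), and the female reference was then the single library HET2. The log2 fold change of *Bcl2* went from 1.24 to 0.61 ± 0.421, that of *Bcl2l1* from 0.78 to 0.47 ± 0.327 and that of *Bbc3* from 1.496 to 0.70 ± 0.637. The lower members moved less, to -0.55 ± 0.312 for *Bax*, -1.12 ± 0.494 for *Bcl2l11* (unadjusted p = 0.0599) and -0.90 ± 0.378 for *Bid* (unadjusted p = 0.0516). The estimates of 9 of 10 members kept the sign they had with all libraries, the exception being *Bmf*. Marker lists differed between the same libraries. The HSC list was 1209 to 1837 CPM in KO, 204 to 570 CPM in the female WT/HET libraries and 660 to 1989 CPM in the male ones, with all 10 of its genes above 1 CPM on average. The erythroid list was 557 to 2294 CPM in KO, 2392 to 3626 CPM in the female and 559 to 8792 CPM in the male WT/HET libraries, and the endothelial list 74.0 to 138 CPM, 4.86 to 35.6 CPM and 47.9 to 147 CPM. The part of these cell type differences in the members' levels was not tested.

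**Figure D3:**
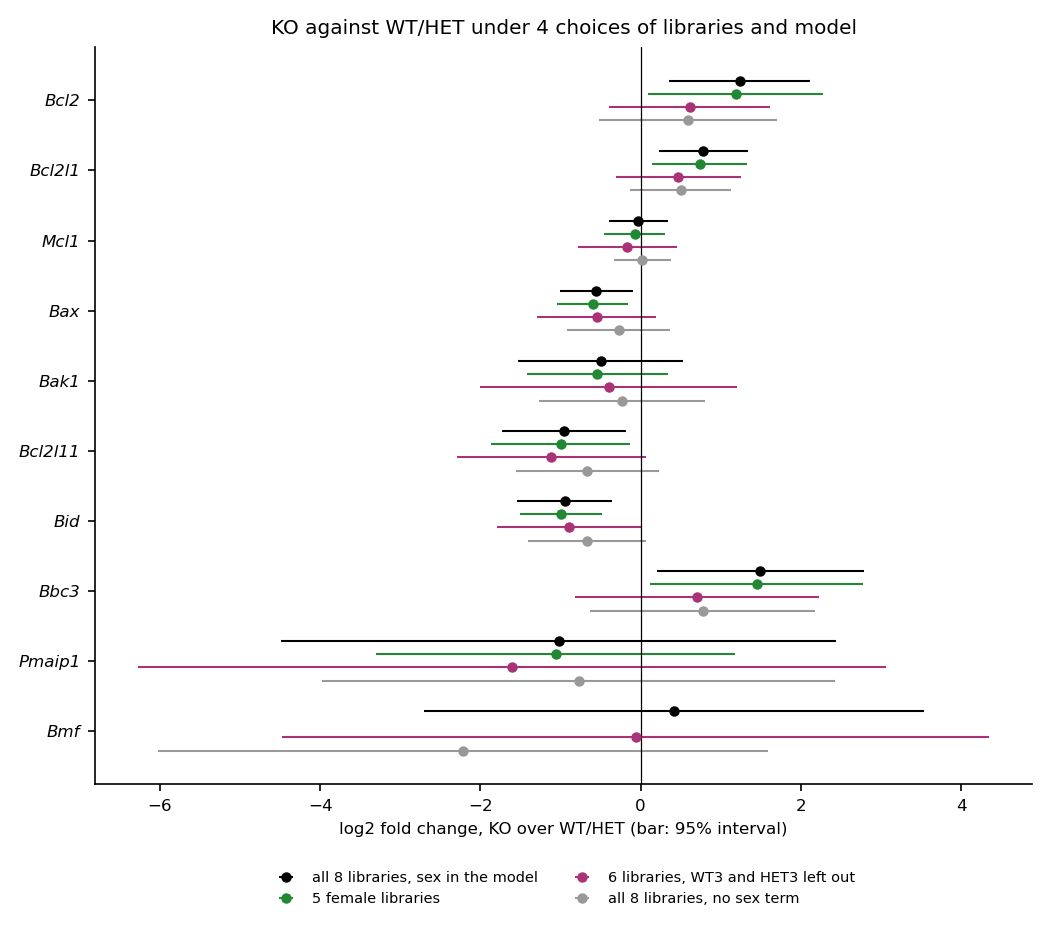
Log2 fold change of *IκBα* KO over WT/HET (x axis) for each of the 10 genes, with 95% intervals as bars, from all 8 libraries with sex in the model, the 5 female libraries, the 6 libraries other than WT3 and HET3, and all 8 libraries without a sex term. *Bmf* has no value in the female libraries, and the 6 intervals that exclude 0 in black and green include it in purple and grey. Black (sex in the model) and green (female libraries) both set KO against WT3, HET2 and HET3, so they are not separate evidence.

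The difference between male (total RNA label) and female (polyA RNA label) libraries was estimated in the same model. Because it shares the female WT/HET libraries with the KO contrast, the values are only set side by side. In males *Bcl2* was higher by 1.08 ± 0.355 on the log2 scale (1.24 in KO), *Bcl2l1* by 0.52 ± 0.219 (0.78 in KO) and *Bbc3* by 1.20 ± 0.521 (1.496 in KO). *Bax* had a log2 difference of -0.63 ± 0.177 (-0.56 in KO), *Bid* of -0.62 ± 0.228 (-0.95 in KO) and *Bcl2l11* of -0.66 ± 0.296 (-0.96 in KO). *Bmf* had 2 to 17 reads in the male and 0 or 1 in the female WT/HET libraries, and no fold is given because the latter are under the limit of 3 reads. None of the 10 was called by edgeR (0.0194% of all genes were). An unadjusted p below 0.05 (edgeR) was found for 6 (32.4% of all genes), *Bcl2*, *Bcl2l1*, *Bbc3*, *Bax*, *Bid* and *Bmf*, but not for *Bcl2l11* (0.0557). The 3 male and 3 female WT/HET libraries did not overlap for 6 (38.6% of all genes). Of these, *Bcl2*, *Bcl2l1* and *Bmf* were above (21.1%) and *Bax*, *Bcl2l11* and *Bid* below (17.5%). Both counts thus include *Bmf*, whose female libraries were under the limit of 3 reads. DESeq2 gave 4 members an adjusted p below 0.05 (24.9% of all genes), *Bcl2*, which was higher in males (14.1%), and *Bax*, *Bcl2l11* and *Bid*, which were lower (10.8%). Without WT3 and HET3, no member had an unadjusted p below 0.05 (6.66% of all genes, edgeR), and *Bcl2* differed by 0.46 and *Bbc3* by 0.40.

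Loss of 1 *IκBα* copy was examined in the WT and HET libraries alone. edgeR called none of the 10 members and none of the 19542 genes tested (0%), and 0 members had an unadjusted p below 0.05 (754 genes, 3.86%, with 1.91% higher and 1.95% lower). DESeq2 gave no member an adjusted p below 0.05 (0.281% of all genes), and the genes it called, 52 without shrinkage (0.266%) and 14 with it (0.0716%), held no member. The log2 fold changes of HET over WT were 0.29 ± 0.414 for *Bcl2* and -0.10 ± 0.252 for *Bcl2l1*, 0.25 ± 0.148 for *Bax* and 0.55 ± 0.406 for *Bak1*. Among the BH3-only genes, they ran from -0.44 ± 0.709 for *Bbc3* to 1.15 ± 1.46 for *Pmaip1*, apart from *Bmf*, whose HET libraries were all under the limit of 3 reads. *Mcl1* was the only member whose HET libraries (188 to 203 CPM) did not overlap its WT libraries (156 to 182 CPM), with 9.04% of all genes not overlapping, and its exact permutation p was 0.1, the smallest that 3 against 3 libraries can give. With sex in the model, its log2 fold change was 0.20 ± 0.140 (adjusted p = 0.919, edgeR). With WT3 and HET3 left out, HET2 was the only female library and was taken up by the sex term, so the fit set HET1 alone against WT1 and WT2, with the spread of these male WT libraries assumed for HET1. The log2 difference of HET1 from WT1 and WT2 was -1.34 for *Bbc3* and 0.64 for *Bid*, 5 members had an unadjusted p below 0.05, and so did 32.1% of all genes (edgeR). These values describe 1 HET library and are no test of the genotype.

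To weigh the sides within a library, the summed level per kilobase of the 7 pro-apoptotic genes was divided by that of the 3 anti-apoptotic genes. The log2 ratio was 0.91, 0.69 and 1.62 in WT, 1.10, 1.30 and 1.45 in HET and 0.65 and 0.91 in KO. It was above 0 in every library, but this rested on *Bax*, without which it was below 0 in every library but WT3 (-0.93 to 0.16). As the mean log2 level per member, the pro-apoptotic genes lay below the anti-apoptotic ones in all 8 libraries (-1.87 to -0.46). That mean gives *Bmf* the same weight as the other genes, although only WT1 and WT2 exceeded its limit of 3 reads. Its sign therefore rests in part on an undetected gene, and a mean without *Bmf* was not taken. In the log2 ratio of the sums, KO1 was the lowest, KO2 lay just above WT1, and WT3 and HET3 were highest. The mean was 0.78 ± 0.183 in KO (SD, n = 2), 1.45 ± 0.162 in the female WT/HET libraries (n = 3) and 0.90 ± 0.207 in the male ones (n = 3), so both KO libraries fell below all female WT/HET libraries, while KO2 lay among the male ones and KO1 just below them. No test was run on this sum, which is over genes chosen for their names.

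The numerator made the ratio vary. The summed anti-apoptotic level was 54.4 to 66.8 CPM per kilobase over the 8 libraries, whereas the pro-apoptotic sum was 96.7 to 168 CPM per kilobase. For the effectors alone the log2 ratio to the anti-apoptotic sum was 0.35, 0.02 and 1.01 in WT, 0.50, 0.74 and 0.99 in HET and 0.11 and 0.42 in KO, and WT2 rather than a KO library was the lowest. For the BH3-only genes alone it was -0.75, -0.74 and 0.09 in WT, -0.45, -0.35 and -0.43 in HET and -1.02 and -0.87 in KO, and both KO libraries lay below all 6 WT/HET libraries. *Bid* was the most abundant BH3-only gene per kilobase in every library. When *Mcl1* was left out, the KO minus WT/HET difference of the log2 ratio went from -0.40 to -0.85, and without WT3 and HET3 it was -0.22.

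**Figure D4:**
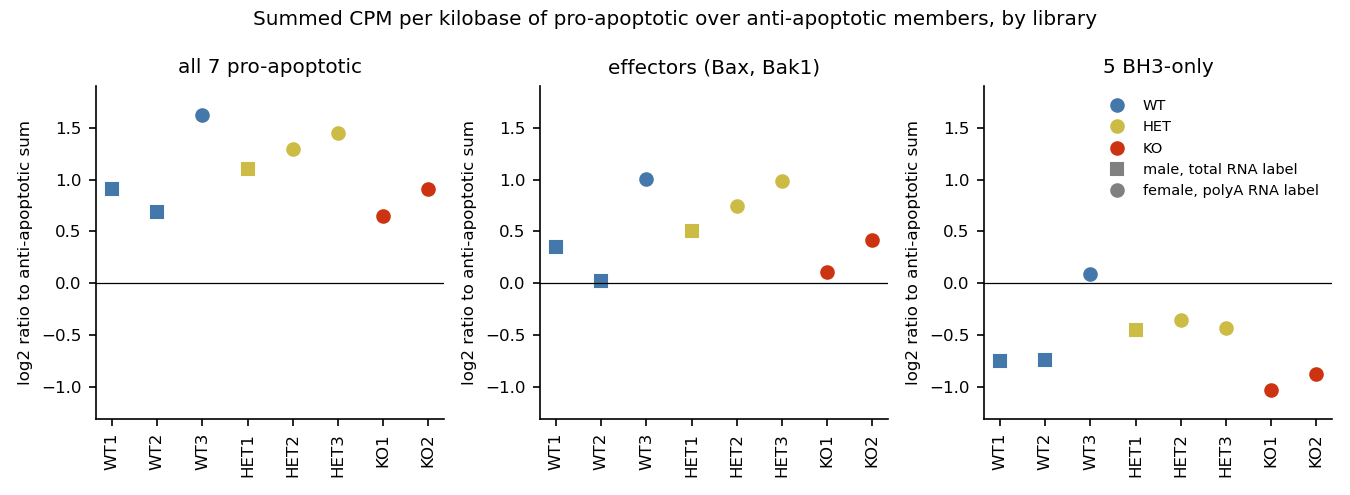
Log2 ratio of the summed CPM per kilobase of all 7 pro-apoptotic genes (left), the 2 effectors (middle) and the 5 BH3-only genes (right) to the sum of the 3 anti-apoptotic genes in each of the 8 libraries. The 2 KO libraries (0.65 and 0.91 on the left) lie below the 3 female WT/HET libraries (1.30 to 1.62) in each panel and, of the panels shown, below all 6 WT/HET libraries on the right alone.

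Single pairs varied more than the sums. Per kilobase, *Bcl2l11* was 0.675, 0.651 and 2.87 times the level of *Bcl2* in WT, 0.78, 1.71 and 3.19 times in HET and 0.336 and 0.772 times in KO. KO1 was the lowest and KO2 was just under HET1, while WT3, HET2 and HET3 were the only libraries in which *Bcl2l11* exceeded *Bcl2*. Within the BH3-only group, *Bbc3* was 9.27, 8.95 and 1.502 times the level of *Bcl2l11* in WT, 2.83, 2.86 and 0.999 times in HET and 15.1 and 6.99 times in KO, so that KO1 had the highest ratio and KO2 a lower one than WT1 and WT2.

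The genes around the family were read from the same fits, as 7 lists of 108 genes, 6 of which had too few reads to be tested or were not in the table. None was called by edgeR in KO (0% of all genes), and DESeq2 with shrinkage called 3, *Tnfrsf1a*, *Fas* and *Foxo1*, all higher (7.16% of all genes were called). Of the 14 other BCL2 family genes tested, 1 had an unadjusted p below 0.05 (25.2% of all genes), the effector-like *Bok*, and their median log2 fold change was 0.12. *Bok* stood at 27.9, 21.4 and 2.86 CPM in WT, 17.2, 8.02 and 0.237 CPM in HET and 19.3 and 17.01 CPM in KO. The lowest values were again those of WT3 and HET3, and KO1 lay among the male libraries and KO2 just below them. *Bad*, a BH3-only partner of BCL2 and BCL-XL, stood at 65.0 to 75 CPM in WT, 66.8 to 84.0 CPM in HET and 59.4 and 62.9 CPM in KO (log2 fold change -0.32 ± 0.150, adjusted p = 0.218, edgeR). Both KO libraries lay below all 6 WT/HET libraries, as for 1.79% of all genes. *Bcl2l14* (log2 fold change 2.07) had an unadjusted p of 0.0711.

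The death receptor list had the highest median of the 7, 1.08 on the log2 scale (0.13 for all genes). Of its 10 genes, 5 had an unadjusted p below 0.05 and all 5 were higher (15.7% of all genes were higher at that p, edgeR). Without sex in the model the median was 0.36 and 0 genes passed (2% of all genes), and without WT3 and HET3 the median was 0.75 and 2 passed (5.23% of all genes, edgeR). *Casp8*, the caspase that cuts BID, stood at 307, 224 and 98.3 CPM in WT, 181, 106 and 79.7 CPM in HET and 230 and 167 CPM in KO. Both KO libraries lay above the female WT/HET libraries, but KO2 was below all male ones. Its log2 fold change was 1.07 ± 0.250 (adjusted p = 0.148, edgeR). *Tnfrsf1a*, the TNF receptor, had a log2 fold change of 2.13 ± 0.584 and *Cflar*, an inhibitor of caspase-8, of 1.10 ± 0.387. *Tnfrsf1a* stood at 139, 136 and 17.3 CPM in WT, 49.1, 39.0 and 10.2 CPM in HET and 115 and 79.4 CPM in KO. Both male WT libraries thus exceeded both KO libraries. *Fas* was scarce, with 0 to 1.12 CPM in WT/HET and 1.08 and 1.52 CPM in KO, and is named after its values were seen. For male against female libraries, which shares the female WT/HET libraries, the list's median was 1.25 (0.19 for all genes). There, 6 genes were higher and 1 lower at an unadjusted p below 0.05 (18.9% and 13.6% of all genes, edgeR).

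The list of mitochondrial outer membrane partners had the lowest median, -0.65, with 13 of 14 genes lower and 8 at an unadjusted p below 0.05, all lower (9.48% of all genes were lower at that p). For male against female libraries the list's median was -0.78. There, 11 genes were lower and 1 higher at that p (13.6% and 18.9% of all genes, edgeR). *Vdac2*, a channel that holds BAK at the mitochondrion, stood at 346, 311 and 657 CPM in WT, 458, 552 and 688 CPM in HET and 334 and 408 CPM in KO. Both KO libraries lay below HET1 and the female WT/HET libraries, and KO2 lay above WT1 and WT2. *Mtch2*, the receptor for truncated BID, had a log2 fold change of -0.84 ± 0.263 and *Tomm20*, an import receptor, of -0.90 ± 0.268. Without sex in the model the list's median was -0.30, without WT3 and HET3 it was -0.57, and 0 of 14 genes passed an unadjusted p of 0.05 in either (2% and 5.23% of all genes, edgeR).

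Of 12 apoptosome and caspase genes, 1 was higher and 4 were lower at an unadjusted p below 0.05 (median log2 fold change -0.05), among them *Casp2* (0.54 ± 0.155) and *Aifm1* (-0.55 ± 0.199). At that p, 15.7% of all genes were higher and 9.48% lower, which holds beside each list that follows as well. Of 10 inhibitors of apoptosis and their antagonists, 4 were higher and 2 lower (median 0.39), among them *Birc2* (0.60 ± 0.203), *Birc5*, or survivin, which also acts in mitosis (-0.75 ± 0.298), and *Htra2*, an antagonist (-0.99 ± 0.375). The p53 list, which includes *Bax*, *Bbc3* and *Pmaip1*, had 1 of 19 genes higher, *Bbc3* itself, and 2 lower, *Bax* and *Ccng1* (-0.76 ± 0.247), with a median of -0.41. Of 24 regulators of member transcription and stability, 5 were higher and 5 lower (median 0.06). *Foxo1*, a transcription factor known to activate *Bcl2l11*, was among the higher, at 23.6, 27.5 and 7.97 CPM in WT, 12.4, 9.89 and 5.87 CPM in HET and 25.7 and 22.9 CPM in KO (log2 fold change 1.62 ± 0.369, adjusted p = 0.148, edgeR). *Pim2*, a survival kinase (1.26 ± 0.377), and *Stat3* (0.76 ± 0.255) were named by the same rule. Without WT3 and HET3, the log2 fold change was 0.88 ± 0.391 for *Casp8*, 1.29 ± 0.645 for *Tnfrsf1a*, 1.27 ± 0.536 for *Foxo1* and -0.60 ± 0.322 for *Vdac2*, each with an unadjusted p above 0.05, and that of *Bok* was 1.15 ± 0.423 (unadjusted p = 0.0316, edgeR). Over the 7 lists 5 genes then had an unadjusted p below 0.05, all higher, as did 5.23% of all genes in either direction. Without sex in the model, 0 genes of the lists in this paragraph passed an unadjusted p of 0.05 (2% of all genes, edgeR). *Casp2* was then at 0.26, *Aifm1* at -0.27, *Birc2* at 0.14, *Birc5* at -0.43, *Htra2* at -0.49 and *Ccng1* at -0.38. In the order of the lists, the KO medians without WT3 and HET3 were -0.24, 0.17, -0.10 and -0.03. The medians for male against female libraries were -0.39, 0.55, -0.55 and 0.01. The 7 lists are described by their counts, and none was tested as a set.

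The promoters of 9 members (16 RefSeq promoters of 300 bases on GRCm38.p6, from 250 bases before to 50 after an annotated start) were searched on both strands for short motifs. The κB letters GGGNNTTTCC were found in 1 promoter each of *Bcl2l1*, *Mcl1* and *Bbc3* and in 1.63% of all 32851 promoters. These 3 stretches are shown because IκBα is the inhibitor of the factor that binds such letters, with the match in capitals, read along the gene's strand.
Bcl2l1 (chr2:152830901-152830960, minus strand): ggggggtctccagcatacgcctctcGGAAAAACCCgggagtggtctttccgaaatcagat
Mcl1 (chr3:95658668-95658727, plus strand): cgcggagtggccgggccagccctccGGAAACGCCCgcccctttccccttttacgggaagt
Bbc3 (chr7:16309422-16309481, plus strand): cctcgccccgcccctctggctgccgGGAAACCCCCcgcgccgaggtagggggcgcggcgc

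In each of the 3 the match lies on the opposite strand, and the members that hold it had KO log2 fold changes of 0.78, -0.03 and 1.496. The half-site of retinoic acid receptors, AGGTCA, was found in promoters of *Bcl2l1* and *Bmf* (16.3% of all promoters), the FOXO letters TGTTTAC in *Bcl2l11* and *Bbc3* (3.65%), the p53 half-site in *Bax* and *Bmf* (8.36%), the E-box CACGTG in *Bax* and *Bbc3* (7.15%), the ETS letters CCGGAAG in *Bcl2l1*, *Mcl1* and *Bcl2l11* (8.86%) and the GC box GGGCGG in 7 of the 9 members (35.7%). The percentages are shares of single promoters, whereas a member is listed if any of its promoters held the motif. Of the 16 member promoters, 10 held the GC box, 3 the κB letters, 3 the ETS letters and 2 each of the other motifs. Member promoters had a median GC content of 61.0%, against 52.7% for all promoters. No binding was measured in these libraries, and a match is a description of letters.

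**Figure D5:**
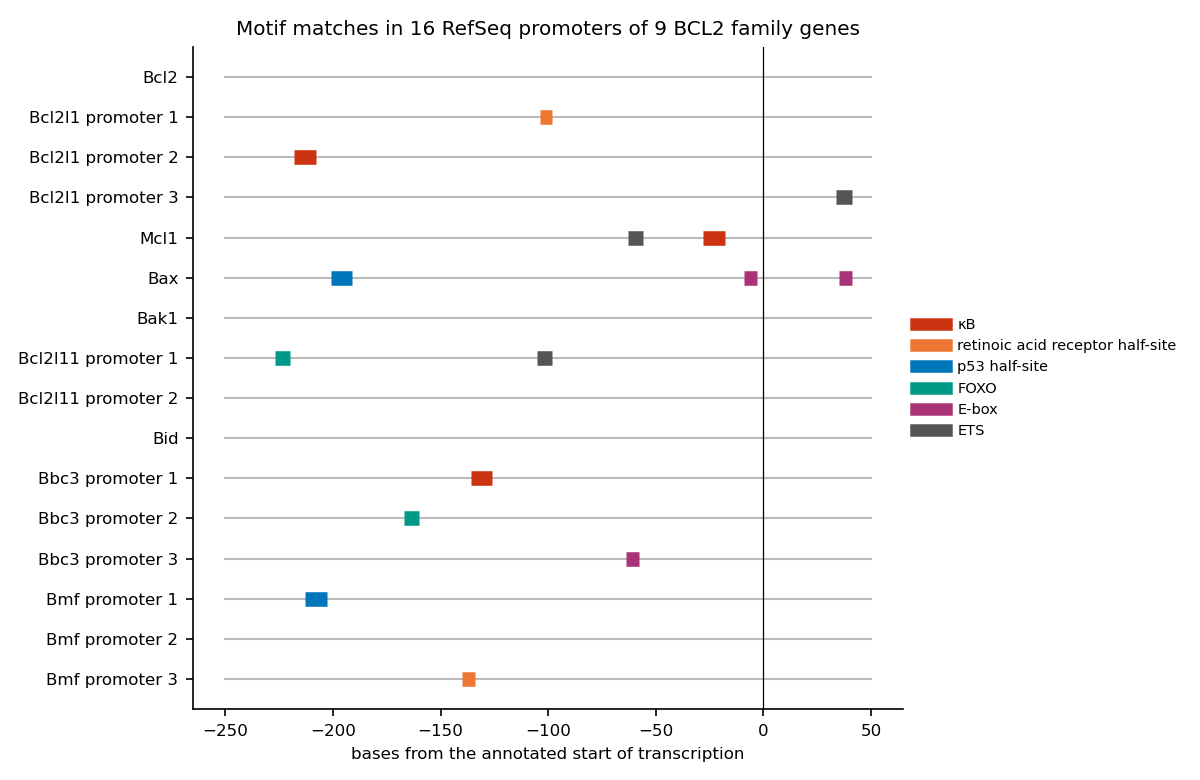
Position of motif matches in the 16 promoters of 9 members, in bases from the annotated start of transcription (x axis), with 1 line per promoter and color for the motif. Matches of the GC box are not drawn. The κB matches lie at -218 to -209 in *Bcl2l1*, -28 to -19 in *Mcl1* and -136 to -127 in *Bbc3*.

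Some members share exonic bases with other genes, which can blur counts where the counting column's strand is not known. *Bcl2* overlaps the antisense gene *D630008O14Rik*, *Bak1* overlaps *Ggnbp1* and *Bid* overlaps *Bcl2l13* on the opposite strand, and *Bax* overlaps *Gm45808* on its own strand. The levels of these 4 members are uncertain to that extent, and no exonic overlap was annotated for the other 6.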

How the data were processed

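Bulk RNA-seq libraries from 8 samples of 500 E14.5 fetal liver LT-HSCs were analyzed. The authors trimmed the reads (Trim Galore 0.6.6), aligned uniquely mapping reads to GRCm38 (STAR 2.7.8) and deposited raw counts per gene. The strand setting of the counting is not given in the sources used here. A second table of log2 values, transformed and corrected for sex, was not used. Symbols came from GENCODE M21 (55227 of 55487 identifiers matched). Counts of genes with 10 or more reads in all were fitted with edgeR 4.0.16 (quasi-likelihood test, legacy form, TMM) on sex and KO status, WT and HET pooled as in the study, with Benjamini-Hochberg adjustment over all genes. HET against WT was fitted on those 6 samples with sex. Genes were called at adjusted p below 0.05 and absolute log2 fold change above 1. DESeq2 1.42.0 with apeglm 1.24.0 was an alternative. The fit was tested on simulated data. The rule named all members, *Nfkbia* and, per pathway list, called genes or the 3 lowest p among genes with a mean of at least 5 CPM. A gene that this rule also names is not reported here. The members and lists were chosen with earlier results of these data known. RefSeq proteins were not used here, so the BH3 core was sought in coding transcripts. No 2 libraries of a group agreed within sampling noise (chi-square per gene 18.9 to 261). Intervals come from the edgeR fit and hold the spread between libraries, and limits of detection cover counting error only.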

Additional observations from a re-analysis of the deposited data

How the results depend on the processing

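Of the alternatives to the fit of KO against WT/HET, genes called went from 0 to 1855 with DESeq2 without shrinkage, 1476 with apeglm, 1 in the edgeR version 4 form, 1106 with no filter beyond 1 read, 706 with WT alone as the reference, 1392 in female libraries with DESeq2 and 22 with that tool without WT3 and HET3. Members called went from 0 to 1 with unshrunken DESeq2 (*Bcl2*) and in female libraries with DESeq2 (*Bbc3*). Leaving out 1 library gave 0 to 703 genes and 0 to 1 members. Without HET2 there were 703 genes and 1 member (*Bcl2*, log2 fold change 1.67, adjusted p = 0.0457), and without HET1 there were 8 genes. With HET2 left out, the female reference was WT3 and HET3 alone, the libraries with the lowest HSC marker sums. With WT alone as the reference, the female reference was WT3. *Mcl1* changed sign to 0.24 with library size only, 0.046 with 10 or more reads in every sample, 0.021 without sex and 0.14 with WT alone. The fitted value of *Bmf*, which is under the limit of detection, changed sign to -2.22 without sex, -0.073 with WT alone, -0.062 without WT3 and HET3 and -0.00072 with DESeq2 there. Over single libraries left out, *Mcl1* ranged from -0.14 to 0.071 and *Bmf* from -0.067 to 0.74. *Bcl2* ranged from 0.96 to 1.67, *Bbc3* from 1.16 to 2.13, *Bid* from -1.202 to -0.74 and *Bcl2l11* from -1.34 to -0.65.

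In HET against WT, genes called went from 0 to 52 and 14 (DESeq2 without and with shrinkage), 131 (no filter beyond 1 read) and 1929, with 1 member, without WT3 and HET3, where HET1 alone stood against WT1 and WT2. Leaving out 1 library gave 0 to 76 genes, the 76 without HET2, and 0 to 0 members. *Bcl2* changed sign to -0.15 without sex and -0.085 with the replicate block. Over single libraries left out, *Bcl2* ranged from -0.018 to 0.46, *Bcl2l1* from -0.26 to 0.052, *Bid* from -0.30 to 0.64, *Bbc3* from -1.34 to 0.48 and *Pmaip1* from -0.53 to 2.86, the sign of the latter 4 changing without HET1.

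In male against female libraries, genes called went from 4 to 2996 (DESeq2, with 1 member), 7 (version 4 form), 2255 (no filter beyond 1 read), 0 (10 or more reads in every sample), 0 (replicate block) and 2 (without WT3 and HET3). Leaving out 1 library gave 1 to 3089 genes and 0 to 1 members, the 3089 without HET1 and 1318 without HET2. *Mcl1* changed sign to 0.16 with library size only. *Pmaip1* ranged from -2.18 to 0.040 over single libraries left out. The pro- to anti-apoptotic difference went from -0.40 to -0.85 without *Mcl1*, and list genes called in KO from 0 to 3 with DESeq2 and apeglm (7.16% of all genes). Library size alone raised the median of all genes by 0.28 in KO, to 0.41, and the member values are not given relative to that median. *Mcl1* lay below it there (0.24) as in the main fit (-0.03, with a median of 0.13).

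Replicate numbers were shared by the groups, and correlations of same-numbered libraries ran from -0.346 (WT2 and KO2) to 0.59 (WT3 and HET3). These values cannot decide whether the numbers pair the libraries. With 2 KO libraries, the correlations of KO1 and KO2 with any other library were equal and opposite. The main fit treated the libraries as unpaired. With the replicate block, 589 genes had an unadjusted p below 0.05 in KO (2.86%), 0 were called and *Bcl2* had a log2 fold change of 0.46. Alternatives added after seeing the data were the female libraries with DESeq2 and the fits without WT3 and HET3. The causes of these changes were not tested. With 2 KO libraries, both female, permutation tests cannot reach 0.05, and *Bmf* is limited by its reads.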
